A study of Mus musculus with 12 samples.

Results

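Kit, the receptor genes of IL-3, GM-CSF and IL-6, and Jak2 were followed in megakaryocytes (MKs) of the mouse bone marrow (BM) and spleen. These 8 genes were taken by symbol from the 55536 genes of the count table, and all 8 passed the expression filter that left 20263 genes. None of them encodes the thrombopoietin receptor, which was not analysed here. Bulk RNA was sequenced from male and female C57BL/6 mice aged 8 to 12 weeks in which Pf4-Cre switches on tdTomato (Pf4-TdTomato), so the reporter marks cells in which the Pf4 promoter was active at some time in the cell or its precursors. All 4 groups carried this reporter: BM MKs after saline, BM MKs after sepsis, splenic MKs after saline and splenic MKs after sepsis. Sepsis was induced with cecal slurry, cells were taken on day 5, and each group had 3 independent libraries of 300 sorted cells. Sorted cells were positive for CD45, tdTomato, CD41 and CD42b and negative for CD138 and for lineage proteins, which per the methods of the study were B220, F4/80, CD11b, CD3 and NK1.1, among other surface proteins.

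Kit is a receptor tyrosine kinase that binds stem cell factor and is a hallmark of hematopoietic progenitors and mast cells. The receptors of IL-3 and GM-CSF pair a ligand-specific alpha chain (Il3ra, Csf2ra) with a signaling beta chain. The common beta chain Csf2rb serves IL-3, GM-CSF and IL-5, and mice carry a second, IL-3-specific beta chain, Csf2rb2. The IL-6 receptor joins an alpha chain, Il6ra, to gp130, encoded by Il6st. The beta chains and gp130 have no kinase of their own and signal through Janus kinases, among them Jak2, which phosphorylate STAT proteins. IL-3, stem cell factor and IL-6 are known as growth factors of the MK lineage, and IL-3 is the main growth factor of basophils.

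Total counts per library were between 7756762 and 27386184, and 3 counts, the limit that a count of 0 allows, corresponded to 0.105 to 0.405 CPM (counts scaled to a common total with TMM factors). Such limits and the intervals below cover counting error only. The sum of 8 MK genes (Pf4, Itga2b, Itgb3, Gp1ba, Gp9, Ppbp, Vwf and Treml1) was between 11592 and 47195 CPM in BM libraries and between 1199 and 3448 CPM in splenic libraries, and none of the 8 was at 0 in any library. Much of it came from Pf4 and Ppbp. All 8 genes had a higher fitted level in BM after saline and after sepsis. The tissues did not overlap for 8 after saline (18.3% of all genes tested) and for 4 after sepsis (18.0%). After sepsis, splenic libraries reached 320 CPM for Itga2b and 427 CPM for Itgb3, within the BM ranges (up to 435 and 488 CPM). The sum of 8 B cell genes was 116 to 1012 CPM in BM and 16090 to 50637 CPM in spleen, and the sum of 6 plasma cell genes was 1479 to 4690 CPM in BM and 7463 to 80709 CPM in spleen, although CD138+ cells were gated out. In spleen most of the B cell sum came from Ighm, with medians of 27136 CPM after saline and 27341 CPM after sepsis. Most of the plasma cell sum came from Jchain (50864 and 29609 CPM). All 8 B cell genes were higher in spleen without overlap after either treatment. All 6 plasma cell genes were higher in spleen, without overlap for 5 after saline and 6 after sepsis. Splenic libraries thus held a lower sum of MK genes beside B cell and plasma cell RNA, and the part of these cell types in the results below was not tested. In bulk RNA, fewer cells of a type and less RNA per cell cannot be told apart.

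Kit differed between BM and spleen after sepsis, and it was the only 1 of the 8 genes that was called in any comparison (Benjamini-Hochberg adjusted p under 0.05 in edgeR). After sepsis, Kit (chromosome 5, 75574916 to 75656722) had 52.1, 59.8 and 20.9 CPM in BM MKs and 2.31, 1.79 and 0.194 CPM in splenic MKs. Every BM library was above every splenic library, and the lowest splenic value rested on 2 counts. The log2 fold change of BM over spleen was 4.93 ± 1.23 (SE, edgeR adjusted p = 0.0436). After saline, Kit had 65.6, 11.3 and 47.5 CPM in BM MKs and 3.24, 42.1 and 7.30 CPM in splenic MKs. These groups overlapped, with the lowest BM library (11.3 CPM) below the highest splenic library (42.1 CPM). The difference was not called (log2 difference 1.24 ± 1.05 SE, edgeR adjusted p = 0.691). Kit in splenic MKs did not overlap between saline and sepsis (log2 difference -3.60 ± 1.15 SE, edgeR adjusted p = 0.332). DESeq2 called this difference (adjusted p = 0.00794, the lowest of all alternatives, which reached 1.0). In BM MKs the means were 41.5 ± 27.6 CPM after saline and 44.2 ± 20.6 CPM after sepsis (SD, n = 3), a difference smaller than either SD. By median, the order of groups was BM sepsis, BM saline, spleen saline and spleen sepsis, and only the last of these stood clear of its neighbour.

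**Figure D1:**
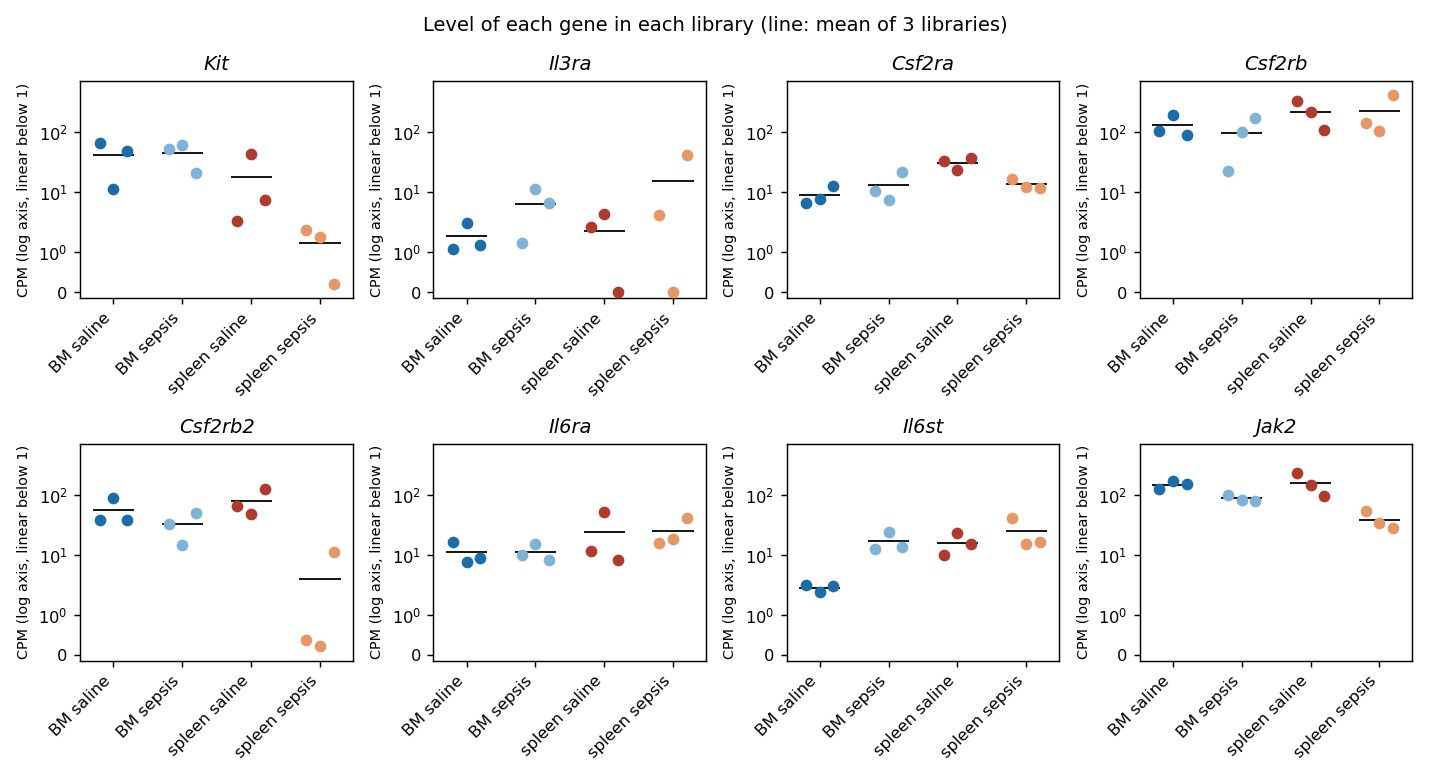
Level of each of the 8 genes in CPM, on an axis that is logarithmic above 1 and linear below, with 1 point for each of the 3 libraries of a group and a line at their mean. Kit lies between 20.9 and 59.8 CPM in BM MKs after sepsis and at or below 2.31 CPM in splenic MKs after sepsis, and Csf2rb2 and Jak2 are also lowest in splenic MKs after sepsis.

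The Kit call between tissues after sepsis was made under 14 of 22 alternatives, with an adjusted p between 0.000173 and 0.165. Among the 12 single omissions it was lost without BM sepsis replicate 1 (edgeR adjusted p = 0.0659) or 2 (0.0849) and without spleen sepsis replicate 2 (0.0671) or 3 (0.0764), while the log2 fold change stayed between 4.44 and 5.66 under all alternatives. Of all genes tested, 1.78% were called in this comparison and 0.597% were called as higher in BM, against 1 of 8 here. An unadjusted p under 0.05 in edgeR was found for 3 of the 8 (12.9% of all genes). DESeq2 called Kit alone among the 8 (8.8% of all genes), and limma-voom called none of them (3.57%). Between tissues after sepsis, markers of more than 1 cell type differed in the same direction as Kit. The MK gene sum was 11592 to 47195 CPM in BM and 1199 to 2291 CPM in spleen. The sum of 8 basophil and mast cell genes was 2748 to 6707 CPM in BM and 47.2 to 728 CPM in spleen. From saline to sepsis in spleen, the median went from 7.30 to 1.79 CPM for Kit and from 1291 to 1710 CPM for the MK sum. That of the basophil and mast cell sum went from 3532 to 93.1 CPM. Spleen saline replicate 2, with Kit at 42.1 CPM, had an MK sum of 1291 CPM. Of 7 stem and progenitor cell genes, 5 were higher in BM after sepsis and 2 were higher in spleen. The groups did not overlap for these 5 and for 1 of the 2, against 18.0% of all genes tested. Myb, a transcription factor of progenitors, was called higher in BM (log2 difference 3.97 ± 0.63 SE, edgeR adjusted p = 0.00176). Ly6a, which encodes Sca-1, was called lower in BM (log2 difference -7.58 ± 0.81 SE, edgeR adjusted p = 6.51e-05), and Cd34 had no count in 4 of 6 splenic libraries. The part of these cell types in the Kit result was not tested.

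Il3ra, the IL-3-binding chain (chromosome 14, 14346275 to 14356011), varied widely between the libraries of a group. It had 1.12, 3.08 and 1.29 CPM in BM MKs after saline and 1.43, 11.1 and 6.56 CPM in BM MKs after sepsis. Splenic MKs had 2.57 and 4.21 CPM in 2 libraries after saline and no count in replicate 3, which allows up to 0.322 CPM. After sepsis, the splenic libraries held 4.16 and 41.7 CPM and, in replicate 2, no count (up to 0.336 CPM). The highest and a zero value of all 12 libraries thus fell within the same group. All 4 groups overlapped, and the adjusted p was between 0.623 and 1.0 in the 4 pairwise comparisons.

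Csf2ra, the GM-CSF-binding chain (chromosome 19, 61223957 to 61228429), was highest in splenic MKs after saline, with 32.4, 22.9 and 36.0 CPM. It had 6.62, 7.75 and 12.6 CPM in BM MKs after saline, 10.2, 7.23 and 21.5 CPM in BM MKs after sepsis, and 16.4, 11.99 and 11.6 CPM in splenic MKs after sepsis. Splenic MKs after saline lay above each of the other 3 groups with no overlap. The difference was not called against BM after saline (log2 difference of BM over spleen -1.76 ± 0.95 SE, edgeR adjusted p = 0.428) or against splenic MKs after sepsis (log2 difference of sepsis over saline -1.19 ± 0.93 SE, edgeR adjusted p = 0.656). The summed level of 8 monocyte and macrophage genes had the same order of groups by median as Csf2ra. It was 559 to 1170 CPM in splenic MKs after saline and 247 to 435 CPM in splenic MKs after sepsis. In BM MKs it was 323 to 1022 CPM after sepsis and 110 to 267 CPM after saline. Much of the sum came from Ly6c2, with medians of 780, 341, 277 and 118 CPM in that order of groups. The genes of the list did not all share this order. After sepsis, 4 of the 7 genes that passed the filter were higher in BM and 3 were higher in spleen. The sort removed cells with CD11b or F4/80, surface proteins of monocytes and macrophages, and whether such cells had a part in the Csf2ra values was not tested.

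The beta chain genes Csf2rb and Csf2rb2 lie side by side on chromosome 15 (Csf2rb at 78325752 to 78353847 on the plus strand, Csf2rb2 at 78282507 to 78305721 on the minus strand, GRCm38). Their coding sequences were 95.2% identical over 2628 aligned bases, with an identical run of up to 242 bases, and 12.3% of the 50-base words of Csf2rb transcripts and 18.4% of those of Csf2rb2 transcripts were shared. Of the 100-base words, 4.63% and 6.82% were shared. Reads that lie wholly within identical stretches cannot be assigned to either gene, so the split of counts between them is uncertain to that extent. A pair of neighbouring 60-base coding windows from GENCODE M21 shows a stretch that is alike and 1 that is unlike, with differing bases in capitals. A read that spans both windows covers differing bases. The first window lies in exon 5 of Csf2rb (chr15:78338834-78338893, plus strand) and exon 4 of Csf2rb2 (chr15:78294438-78294497, minus strand) and holds 0 differences.
Csf2rb, alike: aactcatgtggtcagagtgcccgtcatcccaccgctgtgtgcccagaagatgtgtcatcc
Csf2rb2, alike: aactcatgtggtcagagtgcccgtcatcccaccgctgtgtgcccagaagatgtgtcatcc
The second window lies in the same exons (chr15:78338898-78338957 and chr15:78294374-78294433) and holds 13 differences, the most of any gap-free window of this length within 1 exon.
Csf2rb, unlike: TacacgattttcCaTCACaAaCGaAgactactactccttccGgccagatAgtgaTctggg
Csf2rb2, unlike: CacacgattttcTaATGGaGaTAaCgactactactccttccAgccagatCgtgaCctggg

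Csf2rb2 was lowest in splenic MKs after sepsis, where 2 of the 3 libraries were near the limit of 3 counts. It had 38.2, 88.9 and 37.0 CPM in BM MKs after saline, 32.0, 14.7 and 49.0 CPM in BM MKs after sepsis, and 65.1, 46.6 and 124 CPM in splenic MKs after saline. In splenic MKs after sepsis it had 0.360, 0.224 and 11.2 CPM, from 7, 2 and 115 counts. This group lay below all others without overlap, and replicate 3 stood above the remaining libraries of its group. The log2 fold change of sepsis over saline in spleen was -4.33 ± 1.18 (SE, edgeR adjusted p = 0.230), and that of BM over spleen after sepsis was 3.03 ± 1.11 (SE, edgeR adjusted p = 0.270). Neither was called. Without spleen sepsis replicate 3 both were, with log2 fold changes of -7.95 (edgeR adjusted p = 0.00110) and 6.71 (edgeR adjusted p = 0.000692). DESeq2 (adjusted p = 0.00216) and edgeR with no expression filter (adjusted p = 0.0155) also called the difference in spleen, and the alternatives spanned adjusted p values of 0.00110 to 0.759. In BM MKs the log2 fold change of sepsis over saline was -0.78 ± 1.03 (SE, edgeR adjusted p = 1.0).

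Csf2rb, in contrast to its neighbour, was present in every library. It had 104, 194 and 87.1 CPM in BM MKs after saline, 22.0, 97.8 and 169.5 CPM in BM MKs after sepsis, 326, 212 and 108 CPM in the spleen saline group, and 140.0, 102 and 417 CPM in splenic MKs after sepsis. All 4 groups overlapped, and no comparison was called. The log2 fold change of BM over spleen was -0.75 ± 0.70 (SE, edgeR adjusted p = 0.745) after saline and -1.19 ± 0.71 (SE, edgeR adjusted p = 0.447) after sepsis.

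The share of Csf2rb2 among the counts of both beta chain genes compares them within a library and does not depend on library scaling. It was 26.8%, 31.4% and 29.8% in BM MKs after saline, 59.3%, 13.1% and 22.4% in BM MKs after sepsis, and 16.6%, 18.1% and 53.3% in splenic MKs after saline. In splenic MKs after sepsis it was 0.256% (95% Wilson interval 0.124% to 0.528%, 7 of 2731 counts), 0.220% (0.0602% to 0.797%, 2 of 911 counts) and 2.61% (2.18% to 3.12%, 115 of 4407 counts). The beta chain counts of that group were therefore nearly all assigned to Csf2rb, and its 3 libraries lay below the other 9. The mean share was 1.03% ± 1.37 in splenic MKs after sepsis, 31.6% ± 24.4 in BM MKs after sepsis and 29.3% ± 20.8 in splenic MKs after saline (SD, n = 3). Both comparisons with splenic MKs after sepsis gave p = 0.1 in a two-sided exact permutation test, the smallest value that 3 against 3 libraries allow, and 0.2 when adjusted over the 4 pairwise comparisons. The other comparisons (BM after sepsis with BM after saline, and BM with spleen after saline) gave exact p = 1.0.

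**Figure D2:**
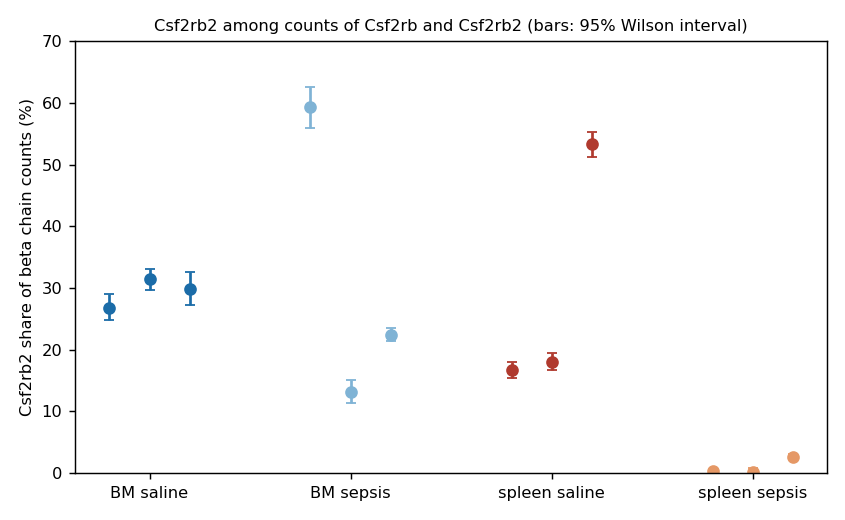
Counts of Csf2rb2 as a percentage of the counts of Csf2rb and Csf2rb2 together in each library, with 95% Wilson intervals that cover counting error only. The 9 libraries of the other groups lie between 13.1% and 59.3%, and the 3 libraries of splenic MKs after sepsis lie between 0.220% and 2.61%.

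The summed level of 8 basophil and mast cell genes was, like Csf2rb2, lowest in splenic MKs after sepsis. The sum of Mcpt8, Prss34, Cpa3, Fcer1a, Ms4a2, Gata2, Cd200r3 and Tpsb2 was 5097 to 29288 CPM in BM MKs after saline, 2748 to 6707 CPM in BM MKs after sepsis, 3113 to 5053 CPM in the spleen saline group and 47.2 to 728 CPM in splenic MKs after sepsis. Replicate 3 had the highest sum of the last group, as it had the highest Csf2rb2. The orders differed among the other groups. In the spleen saline group, replicate 3 had the highest Csf2rb2 (124 CPM) and the lowest sum (3113 CPM). After saline, the median sum was 11080 CPM in BM and 3532 CPM in spleen, whereas median Csf2rb2 was 38.2 CPM in BM and 65.1 CPM in spleen. Between saline and sepsis in spleen, 2 of the 8 genes were called, both lower after sepsis (Cpa3, a mast cell and basophil protease, and Ms4a2, the beta chain of the high-affinity IgE receptor), against 0.158% of all genes tested, and 6 of 8 did not overlap, against 9.46%. Between tissues after sepsis, 4 of the 8 were called, all higher in BM (Mcpt8, Prss34, Cpa3 and Ms4a2), against 0.597% of all genes called as higher in BM. Mcpt8, a basophil protease, had 38.0, 12.7 and 262 CPM in splenic MKs after sepsis and at least 858 CPM in each of the other 9 libraries. The mast cell tryptase Tpsb2 had no count in 7 of 12 libraries. The part of basophils in the Csf2rb2 result was not tested.

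Il6ra, the IL-6-binding chain (chromosome 3, 89864059 to 89913196), had group medians between 8.94 and 18.5 CPM. BM MKs had 16.2, 7.55 and 8.94 CPM after saline and 9.78, 14.8 and 8.25 CPM after sepsis. Splenic MKs had 11.5, 50.7 and 8.26 CPM after saline and 15.5, 18.5 and 40.8 CPM after sepsis. Only BM and spleen after sepsis did not overlap, with the lowest splenic library just above the highest BM library (log2 difference of BM over spleen -1.19 ± 0.99 SE, edgeR adjusted p = 0.652).

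Il6st, which encodes gp130 (chromosome 13, 112464070 to 112510086), was lowest in BM MKs after saline, with 3.09, 2.39 and 3.02 CPM. It had 12.3, 24.2 and 13.5 CPM in BM MKs after sepsis, 10.001, 22.5 and 14.9 CPM in the spleen saline group, and 41.2, 15.1 and 16.5 CPM in splenic MKs after sepsis. BM MKs after saline lay below the other 3 groups, which overlapped one another. The log2 fold change of sepsis over saline in BM was 2.55 (SE 1.03) with an adjusted p of 1.0 in edgeR, in a comparison where 0% of all genes tested were called (717 had an unadjusted p under 0.05, and DESeq2 called 206 and limma-voom 0). BM over spleen after saline had a log2 fold change of -2.48 ± 1.03 (SE, edgeR adjusted p = 0.364). DESeq2 called the latter (adjusted p = 0.00933), and the alternatives reached up to 0.556. The sum of 8 neutrophil genes was 65.0 to 273 CPM in BM MKs after saline and 2250 to 16673 CPM in BM MKs after sepsis. Like Il6st, it was thus higher after sepsis in BM, as were 7 of the 8 genes, while Cxcr2 was lower. Within BM MKs after sepsis, replicate 3 had the highest sum and replicate 2 the highest Il6st. In spleen the sum was 333 to 20997 CPM after saline and 66.8 to 10382 CPM after sepsis. Neutrophils carry CD11b, for which the sorted cells were negative, and their part in the values of Il6st was not tested.

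Jak2, the kinase shared by the IL-3 and GM-CSF receptors (chromosome 19, 29251828 to 29313080), was lowest in splenic MKs after sepsis, with 52.5, 33.2 and 28.0 CPM. It had 232, 143 and 95.7 CPM in the spleen saline group, 122, 166 and 149 CPM in BM MKs after saline, and 99.9, 80.9 and 79.5 CPM in BM MKs after sepsis. In both tissues the 3 libraries after sepsis lay below, or in spleen well below, the 3 after saline. The log2 fold change of sepsis over saline was -2.05 ± 0.56 (SE, edgeR adjusted p = 0.230) in spleen and -0.75 ± 0.54 (SE, edgeR adjusted p = 1.0) in BM. DESeq2 called the difference in spleen (adjusted p = 0.000499), and among the alternatives the adjusted p reached 0.759. BM over spleen after sepsis had a log2 fold change of 1.19 ± 0.54 (SE, edgeR adjusted p = 0.378). The basophil and mast cell sum given above for Csf2rb2 was also lowest in the group where Jak2 was lowest, although within that group replicate 3 had the highest sum and the lowest Jak2, and its part in the Jak2 values was not tested.

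**Figure D3:**
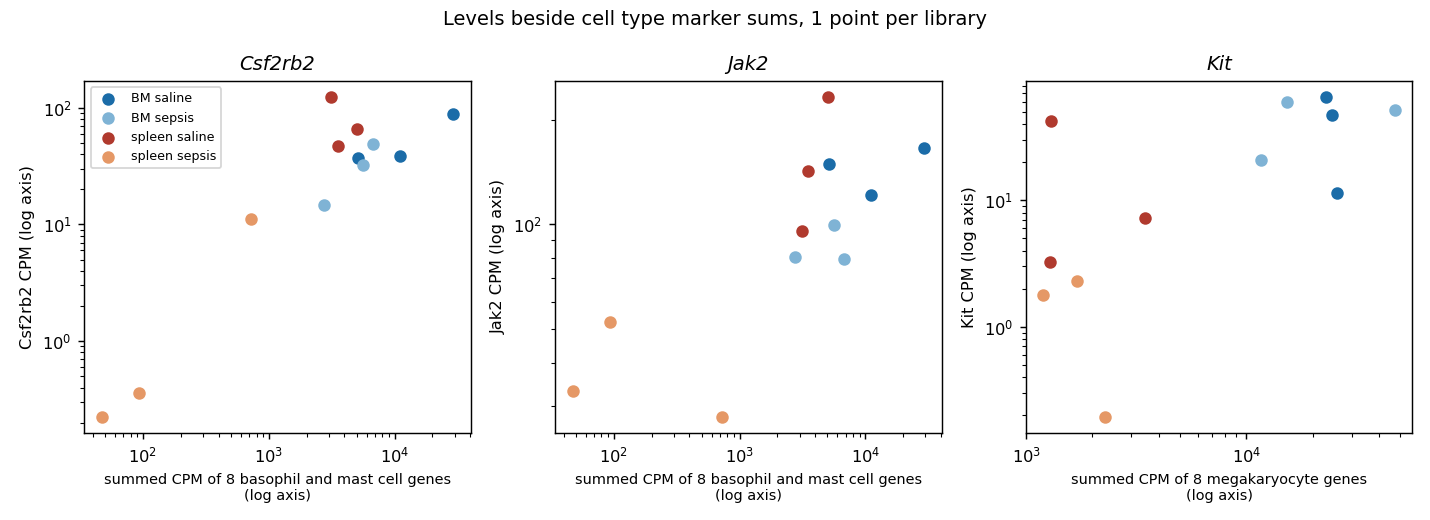
CPM of Csf2rb2 and Jak2 against the summed CPM of 8 basophil and mast cell genes, and CPM of Kit against the summed CPM of 8 MK genes, with 1 point per library and both axes logarithmic. The splenic libraries after sepsis have basophil and mast cell sums of 47.2 to 728 CPM and the lowest Csf2rb2 and Jak2 of all 12 libraries.

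For the count over all 8 genes, 0 were called between tissues after saline, where 1.25% of all genes were called, and 0 between saline and sepsis in spleen, where 0.158% were. An unadjusted p under 0.05 in edgeR was found for 1 of the 8 in the first of these comparisons (12.5% of all genes) and for 3 in the second (13.1%). DESeq2 called 1 (8.16% of all genes) and 3 (6.01%), and limma-voom called 0 in each (0.913% and 0%). No member was called in BM either, where 1 had an unadjusted p under 0.05 (3.54% of all genes) and DESeq2 (1.11%) and limma-voom (0%) called 0. The groups did not overlap for 2 of the 8 genes between tissues after saline (18.3% of all genes tested), for 4 after sepsis (18.0%), for 2 between treatments in BM (8.94%) and for 4 in spleen (9.46%). The median log2 fold change of the 8 genes was -0.63 between tissues after saline, against -0.28 over all genes tested, -0.29 against -0.18 after sepsis, 0.05 against -0.08 for sepsis in BM, and -0.58 against -0.08 for sepsis in spleen. Values of both signs were thus present in each comparison, with 7 of 8 lower in BM than in spleen after saline and 4 of 8 lower after sepsis in spleen.

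The difference of the sepsis effect between tissues was tested as an interaction. The difference between the log2 fold change of sepsis in BM and in spleen was 3.69 for Kit (SE 1.52, adjusted p = 0.598 in edgeR), 3.55 for Csf2rb2 (SE 1.5, adjusted p = 0.617 in edgeR) and 1.30 for Jak2 (SE 0.76, adjusted p = 0.672 in edgeR). None of the 8 genes was called, 2 had an unadjusted p under 0.05 (7.68% of all genes), and DESeq2 and limma-voom called 0 of the 8. Over all genes 0% were called in edgeR (1556 had an unadjusted p under 0.05, and DESeq2 called 495 and limma-voom 0). Without spleen sepsis replicate 3, the interaction was called for Csf2rb2 (log2 difference 7.20, adjusted p = 0.0106 in edgeR).

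**Figure D4:**
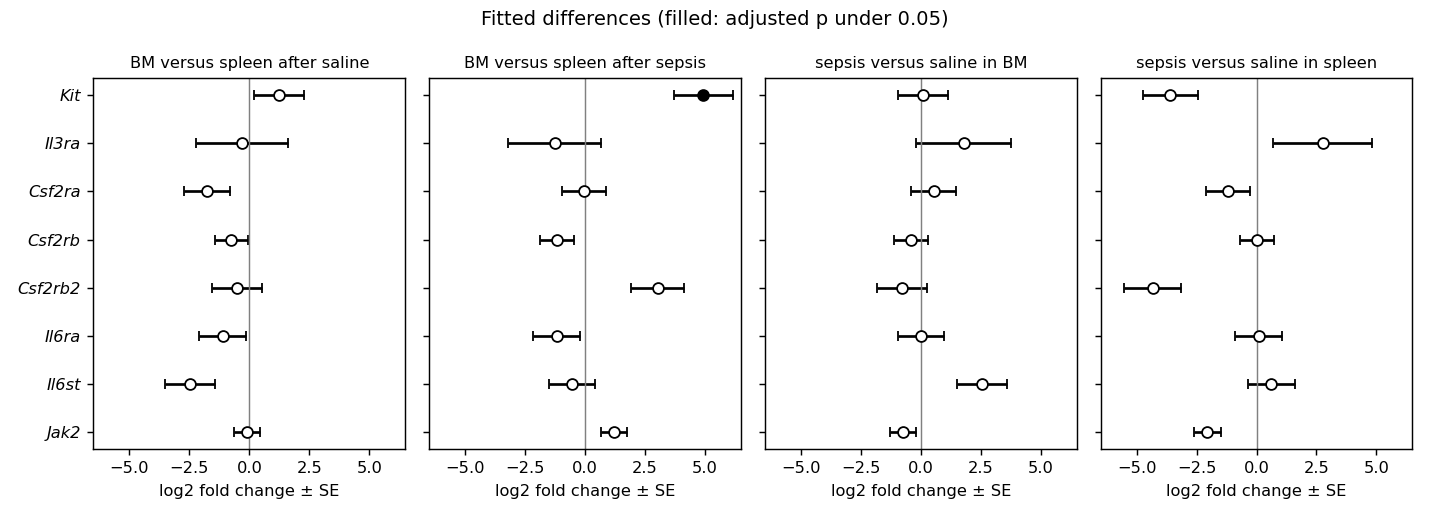
Log2 fold change and SE of each gene in the 4 pairwise comparisons, given as BM over spleen or as sepsis over saline, with filled points for an adjusted p under 0.05 in edgeR. The 1 filled point is Kit between tissues after sepsis at 4.93, and the next in size are Csf2rb2 and Kit for sepsis in spleen at -4.33 and -3.60.

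Levels of different genes were compared after division by exon length (CPM per kb). Jak2 and Csf2rb held the first and second rank in every group by median, with 29.7 and 14.3 CPM per kb in BM MKs after saline, 16.1 and 13.4 in BM MKs after sepsis, 28.4 and 29.1 in splenic MKs after saline and 6.59 and 19.2 in splenic MKs after sepsis. Csf2rb2 came next in the first 3 of these groups, at 8.07, 6.75 and 13.7 CPM per kb, and last in splenic MKs after sepsis at 0.0759 CPM per kb. The alpha chains were below the beta chain Csf2rb in all groups by median, at 0.436 to 2.21 CPM per kb for Il3ra and 2.7 to 11.3 CPM per kb for Csf2ra. Il6ra had medians of 1.03 to 2.14 CPM per kb and its partner Il6st 0.272 to 1.49 CPM per kb. Kit had 5.33 and 5.85 CPM per kb in BM and 0.819 and 0.201 CPM per kb in spleen (saline first).

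Other genes of the same pathways were examined as a list of 41, of which 38 passed the filter. The ligand genes Il3, Csf2 and Il11 were below the filter. Of the 38, 2 were called between tissues after saline (1.25% of all genes tested), 1 after sepsis (1.78%), 0 for sepsis in BM (0%) and 0 for sepsis in spleen (0.158%). In the same order, an unadjusted p under 0.05 in edgeR was found for 8, 9, 3 and 7 of the 38, against 12.5%, 12.9%, 3.54% and 13.1% of all genes. DESeq2 called 6, 9, 0 and 4, against 8.16%, 8.8%, 1.11% and 6.01% of all genes, and limma-voom called 2, 5, 0 and 0, against 0.913%, 3.57%, 0% and 0%. The list had median log2 fold changes of -0.13, -0.49, 0.10 and -0.10, against -0.28, -0.18, -0.08 and -0.08 over all genes. Il5ra, the IL-5-binding chain that also pairs with Csf2rb, had 60.8, 28.5 and 6.22 CPM in the spleen saline group and 0, 1 and 1 counts in BM MKs after saline (edgeR adjusted p = 0.0194, and 0.0666 without BM saline replicate 1). A fold change is not given for it because the BM libraries were under the limit of 3 counts. After sepsis it had 14.4, 26.4 and 30.3 CPM in spleen and 1.5, 0 and 1.19 CPM in BM. Ptpn11, which encodes a phosphatase that links Kit and cytokine receptors to the Ras pathway, was higher in BM after saline (log2 difference 4.12 ± 0.88 SE, edgeR adjusted p = 0.0214), with 118, 130.2 and 62.1 CPM in BM and 6.62, 1.16 and 10.1 CPM in spleen. It was not called by limma-voom or in the 6 libraries alone. Mcl1, an anti-apoptotic target of these receptors, was lower in BM than in spleen after sepsis (log2 difference -2.76 ± 0.49 SE, edgeR adjusted p = 0.00436), with 70.6, 100.2 and 90.9 CPM in BM and 413, 554 and 813 CPM in spleen. After saline it had 100.4, 123 and 107 CPM in BM and 341, 415 and 482 CPM in spleen, also without overlap, and was not called in edgeR (log2 difference -1.91 ± 0.48 SE, adjusted p = 0.0565) but was in DESeq2 (adjusted p = 0.000123) and limma-voom (adjusted p = 0.0204). By role, 1 of 8 other receptor chains, 1 of 5 adaptors and 1 of 6 target genes were called, and none of the 3 ligands, 4 kinases, 4 STAT genes and 8 inhibitors that passed the filter.

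For each of the 8 genes, the 3 protein-coding genes with the most similar pattern were taken by Pearson's r of log2 CPM over the 12 libraries, out of 15220 genes. The libraries fall into 4 groups, so that r includes the differences between groups. Csf2rb2 was most like Ifitm1 (r = 0.98), Zik1 (0.97) and Ier3 (0.95), and Jak2 was most like Il4 (r = 0.95), a cytokine of basophils and T helper cells, Rgs1 (0.92) and Tyrobp (0.91). Among the 3 genes most like Kit were Frrs1 (r = 0.96) and Fkbp7 (0.93), and among the 3 most like Csf2ra were Tor1aip1 (0.86) and Med10 (0.85). The patterns of the other receptor genes were led by Socs6, Ttc7 and Nfkbib for Il3ra (r of 0.90 to 0.93), Hdac10, Cyp4f18 and Tmem229b for Csf2rb (0.86 to 0.92), Crip3, Senp7 and Zim1 for Il6ra (0.89 to 0.93) and Cybc1, Chd7 and Pde8a for Il6st (0.85 to 0.90).

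Upstream sequence was examined for the genes that were lowest together in splenic MKs after sepsis. RefSeq promoter windows of GRCm38.p6 were found for 7 of the 8 genes, and the 250 bases before the transcription start were searched on both strands for 5 short motifs. The GATA motif was read as AGATAA and was present in 10% of 32851 upstream windows. The ETS motif was read as GGAAGT and was present in 19.7% of them, and the RUNX motif, read as TGTGGT, in 14.0%. The STAT motif was read as TTCNNNGAA and was present in 7.0%, and the E-box, read as CAGCTG, in 13.0%. No matches overlapped in the windows shown. Csf2rb2 held a STAT match 7 to 15 bases before the start and Jak2 an E-box match 138 to 143 bases before it, and Kit held none of the 5 motifs. Kit was also lowest in splenic MKs after sepsis, and its window, which held no match, is not printed. The other 2 windows are printed with the match in capitals, Csf2rb2 from chr15:78305722-78305971 (minus strand) and Jak2 from chr19:29251553-29251802 (plus strand).
Csf2rb2 upstream: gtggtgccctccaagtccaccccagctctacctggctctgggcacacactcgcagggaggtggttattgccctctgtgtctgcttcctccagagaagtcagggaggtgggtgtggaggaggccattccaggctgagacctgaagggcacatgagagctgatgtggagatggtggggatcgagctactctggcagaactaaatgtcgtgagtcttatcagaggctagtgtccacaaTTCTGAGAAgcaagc
Jak2 upstream: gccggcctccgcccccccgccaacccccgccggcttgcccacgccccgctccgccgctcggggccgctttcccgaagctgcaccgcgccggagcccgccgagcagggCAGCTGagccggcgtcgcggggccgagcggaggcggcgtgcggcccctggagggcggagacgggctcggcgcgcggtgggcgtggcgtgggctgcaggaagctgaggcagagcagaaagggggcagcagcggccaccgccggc
The GC content was 56.4% in the window of Csf2rb2, 80.8% in that of Jak2 and 70.8% in that of Kit, and the median over all windows was 52.4%. Among the other members, Il3ra held an ETS match, Il6ra a GATA match and 2 ETS matches, and Csf2ra and Il6st none.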

How the data were processed

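The authors deposited a table of read counts for 55536 genes in 12 libraries, as whole numbers without normalization. Libraries were made with the SMART-Seq HT and Nextera XT kits, and the submitters' processing notes name STAR 2.7.2b, GRCm38, R 3.6.1 and DESeq2 1.26. No source used here gives the annotation, strand or counting options, so that reads of overlapping genes on opposite strands could not be separated (at most 2.8% of the exon bases of a member, in Il6ra). Groups came from the sample labels, and all identifiers matched GENCODE M21.

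Testing used edgeR 4.0.16 in R 4.3.3 (filterByExpr, minimum count 10, TMM factors, 1 mean per group, quasi-likelihood F test, 8 residual degrees of freedom, Benjamini-Hochberg adjustment over 20263 genes). The SE is the log2 fold change divided by the square root of F. Log2 CPM for Pearson's r used a prior count of 2, and immunoglobulin and T cell receptor segments were left out of that search. Alternatives used limma 3.58.1 and DESeq2 1.42.0. Shares, permutation tests and figures were made with Python 3.11.15, scipy 1.17.1 and matplotlib 3.10.9, and coding sequences were aligned with Biopython 1.88. The scripts were tested on simulated data.

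All 8 members were named in every comparison, of the pathway list those that were called, and the 3 most similar genes for each member, of which some are not reported here. Members and lists were chosen with earlier results of these data known, and 3 pathway genes also stand in marker lists.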

Additional observations from a re-analysis of the deposited data

How the results depend on the processing

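The number of the 8 genes called between tissues after sepsis went from 1 to 0 with RLE factors, with a filter of 10 counts in at least 6 libraries, with limma-voom and in a fit of the 6 libraries alone, and was 0 to 1 when 1 library was left out. Between tissues after saline DESeq2 called 1 gene instead of 0. Between treatments in spleen the number went from 0 to 1 with no expression filter and to 3 with DESeq2, and leaving out 1 library gave 0 to 1, as it did for the interaction. Kit, the called gene, had adjusted p values of 0.0522 with RLE factors, 0.0514 with the stricter filter, 0.165 with limma-voom and 0.0605 in the 6 libraries alone. Library size alone moved the median log2 fold change of all genes of BM over spleen from -0.28 to 0.20 in the saline groups, and from -0.18 to 0.34 in the sepsis groups. The 19 log2 fold changes given for members kept their direction under every alternative run (22 for the pairwise comparisons, and 21 for the 3 interaction values, which 6 libraries alone cannot give), whereas 17 of all 40 member values had the opposite sign under at least 1 alternative, never with a call. The causes were not tested.

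Deviations from the group means gave no sign that replicate numbers pair the libraries. The 18 correlations of same-numbered libraries were between -0.0566 and 0.0447, and the 36 of differently numbered libraries between -0.0736 and 0.0719. With 3 libraries per group, these values cannot decide whether same-numbered libraries came from the same mice. In a fit with a replicate block, the counts of members called were 0, 1, 0, 0 and 0 in the 5 comparisons, as without it, and Kit had an adjusted p of 0.0266. The common dispersion was 2.05, and thinning to 7756762 counts per library left the counts of members called the same. Of the pathway genes, leaving out 1 library gave 1 to 4 calls between tissues after saline (1 without BM saline replicate 1, 4 without spleen sepsis replicate 3), 1 to 2 after sepsis (2 without spleen sepsis replicate 2) and 0 to 1 for sepsis in spleen.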
